A study of Caenorhabditis elegans with 9 samples.

Results

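Larvae of Caenorhabditis elegans that cannot add O-GlcNAc to proteins were compared directly with larvae that cannot remove it. The comparison set 3 arrays of ogt-1(ok430) mutants, in which the O-GlcNAc transferase is lost, against 3 arrays of oga-1(ok1207) mutants, in which the O-GlcNAcase is lost. These are 6 of the 9 arrays of the series. The remaining 3, from the wild type, were left out of the main test and are given as a reference level. Alternative fits on all 9 arrays, or without the arrays of widest spread, used the wild type for the spread between arrays alone. All animals were fed larvae of the fourth stage (L4), picked by hand in lots of 20 and matched by the look of the developing vulva. Each mutant is represented by a single deletion allele, and the labels give no second allele and no rescue. The measurements covered 17118 genes, each by the probe set with the highest mean log2 signal over the 9 arrays.

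O-GlcNAc is a single sugar that the transferase places on serine or threonine residues of proteins in the nucleus and cytoplasm, and that the O-GlcNAcase takes away again. Its donor, UDP-GlcNAc, is made from sugar, nitrogen and acetyl groups by the hexosamine pathway, so the modification is often described as a read-out of nutrient supply. In C. elegans animals without either enzyme are viable, and both have been studied for insulin signalling, fat and carbohydrate storage, stress and lifespan. Because the enzymes catalyse opposite steps, the direct comparison asks which transcripts separate animals short of the modification from animals that accumulate it.

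The arrays had nearly the same mean log2 signal, 5.91, with medians from 5.21 to 5.30. The spread of signals was less even: the SD over probe sets exceeded 1.8 on ogt-1 array 3 and oga-1 arrays 1 and 3, at 1.83, 1.85 and 1.83, and lay between 1.75 and 1.79 on the other arrays. Fits without these 3 arrays of wide spread leave 1 oga-1 array, whose spread is taken from the other groups. Over the probe sets of an array, which are not independent of each other, arrays of the ogt-1 mutants correlated with each other at 0.9907 to 0.9926 and those of the oga-1 mutants at 0.9896 to 0.9925, while arrays of different mutants correlated at 0.9581 to 0.9734. The labels call the arrays biological replicates without naming separate cultures, so the p-values measure the spread between these arrays, part of which may be technical. RNA came from whole animals, and fewer cells of a type cannot be told apart from less RNA per cell. Differences below are log2 signals of ogt-1 mutants minus those of oga-1 mutants, and a gene was called when its limma p, adjusted by Benjamini-Hochberg over all 22548 probe sets, was under 0.05.

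The mutated genes were read first. For ogt-1, on chromosome III, the stronger probe set read 6.97, 7.01 and 7.12 on the ogt-1 arrays and 7.85, 8.08 and 7.88 on the oga-1 arrays. All ogt-1 mutant arrays lay below all oga-1 mutant arrays, by 1.87-fold (difference -0.90, SE 0.11, adjusted p = 0.000275), and the wild type, at 7.90, sat with the oga-1 mutants. A dimmer ogt-1 probe set differed by -0.23 and was not called (adjusted p = 0.17). For oga-1, on chromosome X, the stronger probe set read 5.19, 5.47 and 5.29 on the ogt-1 arrays and 4.87, 5.09 and 4.84 on the oga-1 arrays. These values did not overlap, but the signal was dim everywhere and the difference of 0.38 passed narrowly (adjusted p = 0.038). That call was lost when ogt-1 array 2 or 3 or oga-1 array 1 or 3 was left out, and the other oga-1 probe sets, at 0.10 and 0.22, were not called (adjusted p = 0.54 and 0.22). Whether any of these probe sets lies in a deleted segment was not analysed here.

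Transcript levels differed between the mutants across a large share of the genome. Of 22548 probe sets tested, 4844 were called, which is 21.5%: 1948 (8.64%) were higher and 2896 (12.8%) lower in ogt-1 mutants. By gene, 3882 of 17118 were called (22.7%), 1588 higher (9.28%) and 2294 lower (13.4%). The arrays of the 2 mutants did not overlap in 6263 genes, or 36.6%. Higher calls made up 40.21% of called probe sets as deposited and 56.46% after a cyclic loess scaling, with 2421 higher and 1867 lower, so which direction holds more genes depends on the scaling.

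The direction of the calls moved with signal level. Among the 4280 brightest genes, with mean log2 signals of 6.83 to 14.77, 35.5% were lower and 17.9% higher in ogt-1 mutants, and the median difference was -0.23. In the 4280 dimmest genes 0.561% were lower and 1.29% higher, and the median difference was 0.04. Over all genes the median was 0.02. After cyclic loess the medians of the same level groups lay between 0.0091 and 0.0284. Several lists of bright genes are therefore read here against the brightest genes as well as against all genes.

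**Figure D1:**
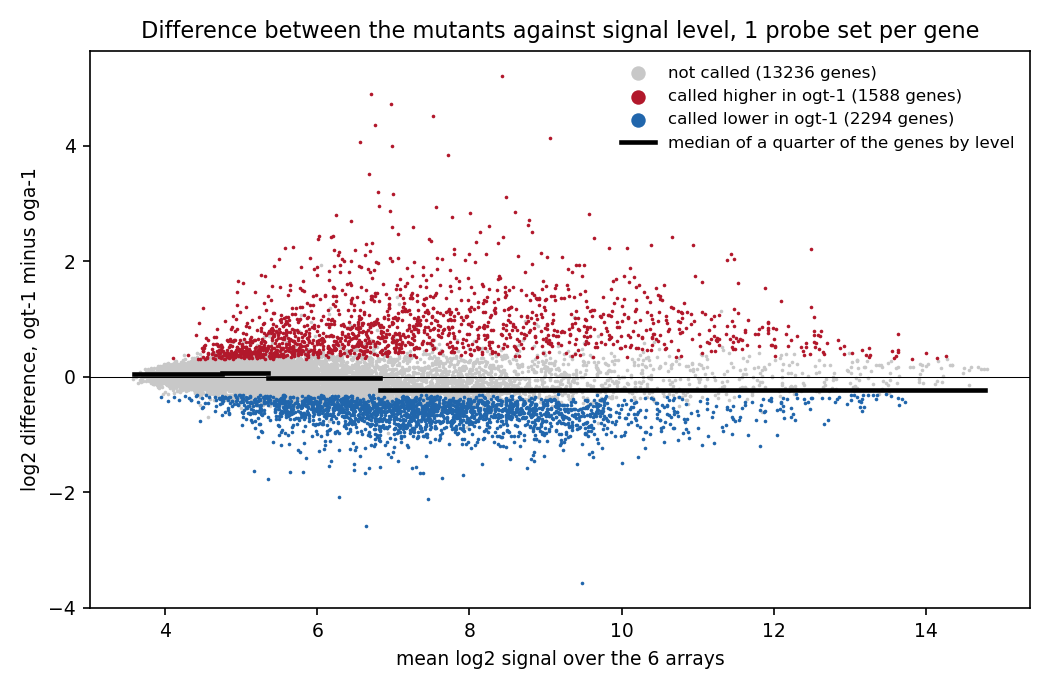
Log2 difference between ogt-1 and oga-1 mutants (vertical axis) against the mean log2 signal over the 6 arrays (horizontal axis), 1 point per gene, with called genes in colour and black bars for the median of each of 4 groups of genes by level. Large differences are mostly above 0, while the median of the brightest genes lies at -0.23.

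Large differences were mostly higher levels in ogt-1 mutants, and the wild type mostly sat with the oga-1 mutants. At least 2-fold differences were found in 462 called genes that were higher and 162 that were lower, and at least 4-fold differences in 77 and 4. The wild-type mean was nearer to that of the oga-1 mutants in 1383 of the 1588 higher genes (87.1%) and in 1747 of the 2294 lower genes (76.2%). Among differences of at least 2-fold it was nearer in 444 of 462 (96.1%) and 147 of 162 (90.7%). These counts describe where its level lies without a test.

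T27E7.1, on chromosome IV, separated the mutants most. It read 11.16, 10.99 and 10.97 on the ogt-1 arrays and 5.58, 5.68 and 6.23 on the oga-1 arrays, with a wild-type mean of 5.84. The ogt-1 arrays agree closely, and the 36.9-fold difference had an adjusted p of 6.86e-08. The long noncoding RNA tts-1, known from long-lived and dauer animals, read 9.41, 9.73 and 9.79 against 5.98, 5.66 and 5.76. That is 14.4-fold higher (adjusted p = 1.44e-07), again with the wild type, at 5.65, at the oga-1 level. Also tight within each mutant were B0310.6 (16.7-fold higher), srlf-35 (15.99-fold higher) and hpo-26 (11.40-fold higher).

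Several of the largest differences were uneven among the ogt-1 arrays. C23G10.11 read 7.37 on ogt-1 array 1 but 10.39 and 10.23 on the others, against 4.74, 4.55 and 4.56 in oga-1 mutants. ZK218.11 likewise read 7.02, 9.41 and 8.77 against 5.08, 5.54 and 5.01, and its neighbour in name, ZK218.7, read 6.65, 9.41 and 8.80 against 5.34, 5.48 and 5.20. T26E4.10 (8.05, 9.18 and 10.22) and T26E4.9 (7.98, 9.05 and 9.78) were lowest on ogt-1 array 1 too, and their oga-1 arrays stayed between 4.18 and 4.68. All 5 genes were taken from those whose ogt-1 and oga-1 arrays do not overlap, so the shared direction was fixed by the choice. The size differed among the ogt-1 arrays. The call of ZK218.11 was lost under 1 alternative and that of ZK218.7 under 2.

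The 15 largest higher differences were completed by B0348.2 (22.7-fold), nspb-6 (17.6-fold), Y110A2AL.9 (7.67-fold) and a pair of transthyretin-related genes. The nematode-specific peptide gene nspb-6 read 11.73, 10.73 and 10.92 against 6.04, 7.54 and 7.38, and wild-type arrays spread from 6.48 to 8.47. For all 15 genes the wild-type mean lay nearer to oga-1 mutants, as it did in 96.1% of called genes at least 2-fold higher.

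Lower levels in ogt-1 mutants were led by the adjacent-numbered pud-3 and pud-4, small proteins first seen to change with insulin signalling. For pud-3 the ogt-1 arrays read 6.93, 7.76 and 8.41 and the oga-1 arrays 11.17, 11.16 and 11.46, an 11.8-fold difference (adjusted p = 3.07e-05). For pud-4 they read 4.72, 5.42 and 5.90 against 7.72, 7.66 and 8.42, or 6.01-fold lower. The ogt-1 arrays rank alike in both genes. Arrays that do not overlap with those of the oga-1 mutants were a condition for entering this set.

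The other genes of this set have varied roles. The stearoyl-CoA desaturase fat-7, which makes oleate, read 5.11, 4.90 and 4.96 against 6.56, 6.75 and 6.60, or 3.13-fold lower (adjusted p = 8.08e-06). The purine synthesis enzyme paic-1 was 3.37-fold lower, with arrays at 6.69, 6.88 and 6.71 against 8.67, 8.41 and 8.45. The body-size gene lon-1, a secreted protein controlled by TGF-beta signalling, was 3.05-fold lower, and the lipase-related lips-14 was 3.11-fold lower. The astacin protease dpy-31, which trims cuticle collagens, was 3.17-fold lower by the probe set that stands for it, and its other probe sets differed by -1.23 and -0.70, both called. The peroxisomal transporter pmp-5 was less even, at 7.75, 5.70 and 6.23 against 8.28, 7.98 and 8.41, and lost its call under 3 alternatives. Also among the 15 largest were Y38E10A.14 (4.32-fold lower), T04D3.5 (3.27-fold lower), the ABC transporter haf-6 (3.43-fold lower) and F39F10.3 (2.99-fold lower).

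**Figure D2:**
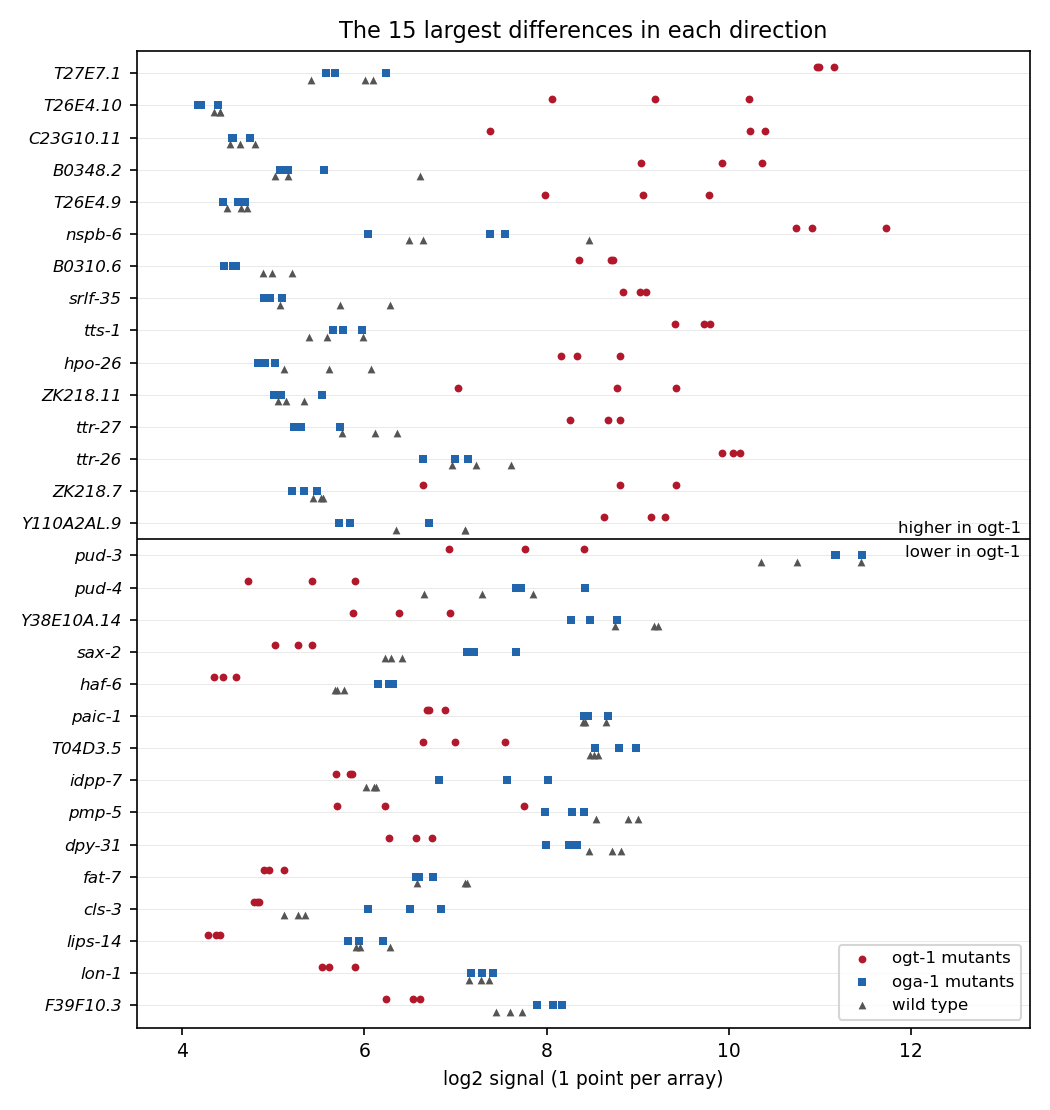
Log2 signal on each array (horizontal axis) of the 15 genes with the largest called differences in each direction, with ogt-1 mutants as circles, oga-1 mutants as squares and the wild type as triangles, 3 points each. The 30 genes were chosen so that circles and squares do not overlap, and in most the triangles lie near the squares.

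The wild-type mean lay between the mutant means in most called genes. Of the 1588 higher genes it was between and nearer to oga-1 mutants in 846, and between and nearer to ogt-1 mutants in 192. Of the 2294 lower genes these counts were 1392 and 515. In a smaller set of genes it lay between the mutants and well away from both. Of called genes whose mutant arrays did not overlap, 54 that were higher and 16 that were lower in ogt-1 mutants had a wild-type mean at least 0.5 log2 away from both mutants and between them. The genes named for this pattern were chosen after their values were seen, and no test of it was made. The neuronal gene sax-2, a relative of the fly protein Furry, read 5.02, 5.43 and 5.27 on the ogt-1 arrays, 6.22, 6.29 and 6.42 in the wild type, and 7.66, 7.13 and 7.20 on the oga-1 arrays. The steps on each side were 1.07 and 1.02, and no array of any group overlaps another. The chromodomain protein gene cec-4, whose product anchors heterochromatin at the nuclear edge, averaged 6.32, 7.01 and 7.79 in the same order. In the opposite direction the insulin-like peptide gene ins-26 averaged 6.80 in ogt-1 mutants, 5.56 in the wild type and 4.56 in oga-1 mutants, and ins-33 averaged 7.51, 6.45 and 5.59.

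Of 10 measured cytochrome P450s of the cyp-35 group, looked at after their values were seen, 9 were called lower in ogt-1 mutants, by 1.28- to 2.76-fold, and 0 higher. In 8 of these 9 the wild-type mean lay between the mutants. The means of cyp-35A3 were 8.29 in ogt-1 mutants, 8.99 in the wild type and 9.67 in oga-1 mutants. Those of cyp-35B2 were 5.44, 6.29 and 6.91, and those of cyp-35A5 were 5.13, 5.64 and 6.43. The exception was cyp-35D1, for which the wild type, at 4.69, lay just below the ogt-1 mutants at 4.82, and oga-1 mutants stood above both at 5.65. In idpp-7 and cls-3, a microtubule regulator of the CLASP family, the wild type was likewise nearer to ogt-1 mutants (6.09 and 5.25) than to oga-1 mutants (7.47 and 6.46).

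A gene far above the wild type in both mutants also differed between them. The cathepsin B-like protease cpr-4 read 12.31, 12.97 and 12.67 in ogt-1 mutants, 11.08, 11.06 and 11.22 in oga-1 mutants and 7.10 on average in the wild type. It was 2.89-fold higher in ogt-1 than in oga-1 mutants (adjusted p = 0.000118). Among 26 cathepsin-type proteases 6 were higher (23.1%), with cpr-1 at 2.3-fold, and 4 lower (15.4%), with the cathepsin L gene cpl-1 at 1.84-fold. Of all genes 9.28% were higher and 13.4% lower, and of the brightest, which include 17 of the 26, 17.9% and 35.5%. The count of lower members is unstable: it was 2 without ogt-1 array 1, ogt-1 array 2 or oga-1 array 2, and 1 without oga-1 array 1 or 3.

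**Figure D3:**
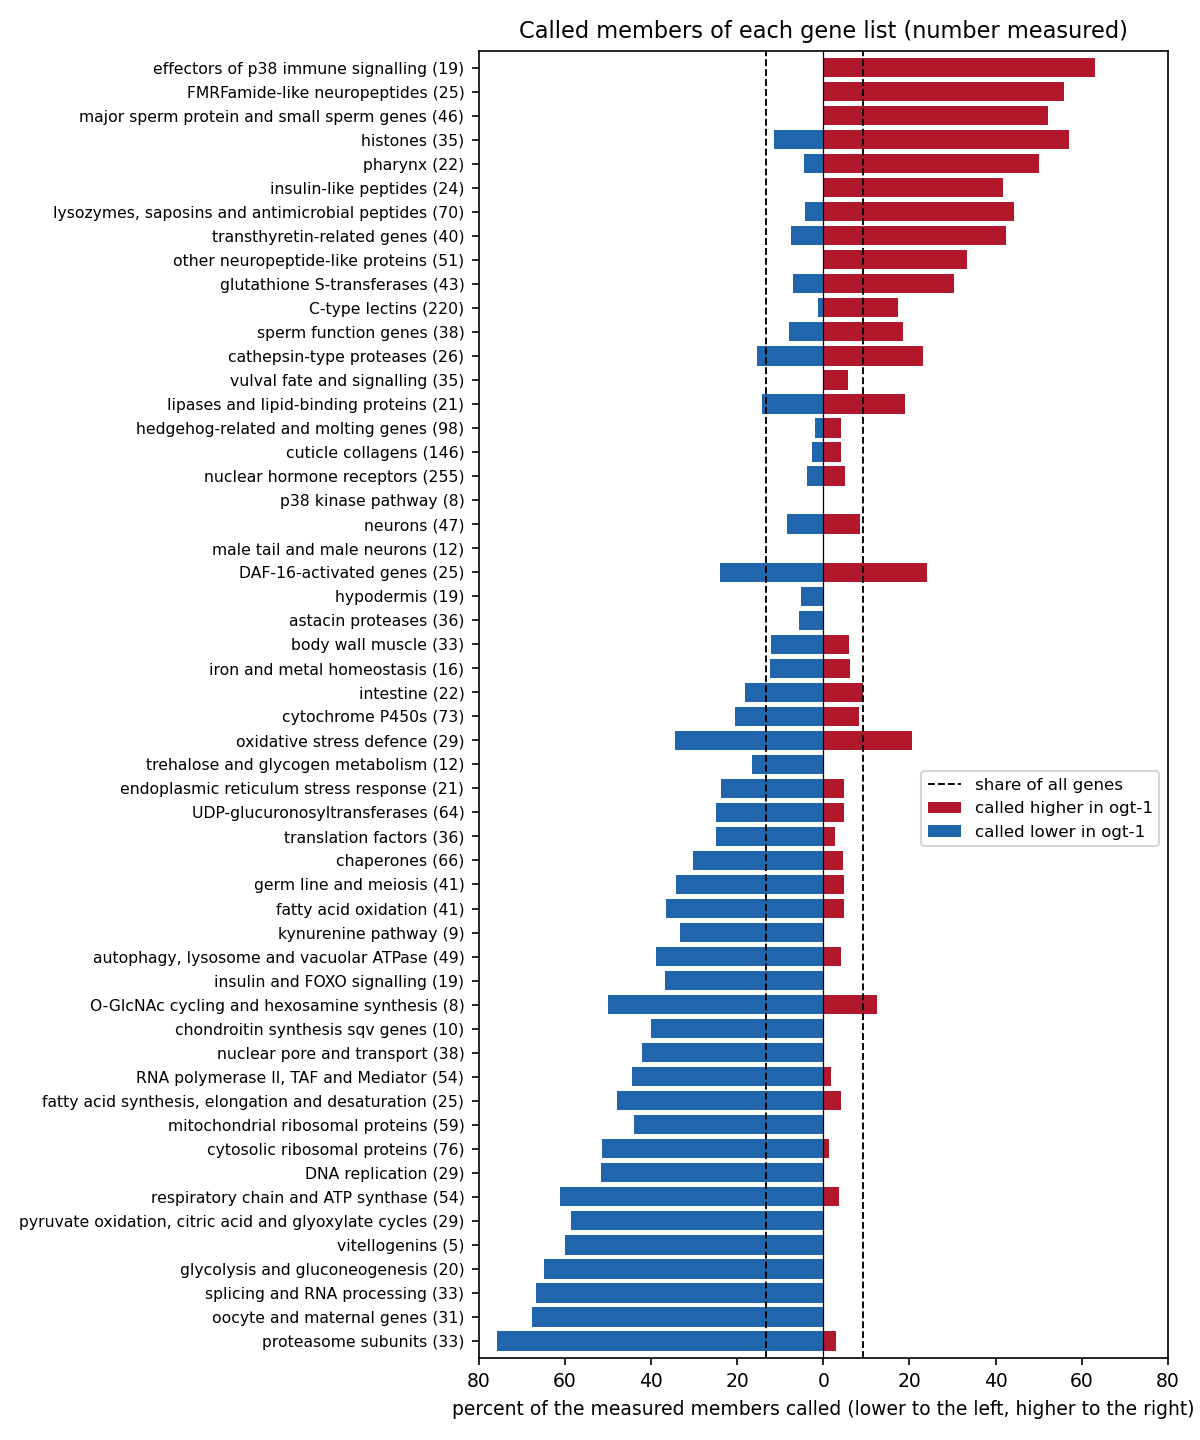
Percent of the measured members of each gene list with 5 or more members that were called higher in ogt-1 mutants (bars to the right) or lower (bars to the left), with the number measured in parentheses and dashed lines at the shares of all genes, 9.28% and 13.4%. Defence effectors, peptides, histones and sperm genes extend to the right, and the proteasome, oocyte, splicing and energy metabolism lists to the left.

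Innate defence genes were higher in ogt-1 mutants. In C. elegans the p38 kinase PMK-1 drives a set of intestinal antimicrobial and CUB-like genes. Of the 19 measured effectors 12 were higher (63.2%) and 0 lower, with a median difference of 0.88. Among the brightest genes, which include 13 of the 19, 17.9% were higher. The C-type lectin clec-4 read 7.76, 7.81 and 7.76 against 5.68, 5.47 and 5.65, or 4.52-fold higher (adjusted p = 1.22e-06), and clec-85 was 3.83-fold higher. C17H12.8, a CUB-like gene, read 9.09, 9.72 and 9.89 against 7.54, 6.51 and 6.82, or 6.10-fold higher. Without oga-1 array 2, 2 effectors were called lower. In all 12 called effectors the wild-type mean was nearer to oga-1 mutants, as it was in 87.1% of all higher genes. The kinases and factors of the pathway itself were not called in any of 8 genes: pmk-1 differed by -0.16 (adjusted p = 0.41) and sek-1 by -0.19 (adjusted p = 0.35). Both kinases are named although the rule for named genes did not select them.

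Secreted antimicrobial proteins followed the effectors. Of 70 lysozymes, saposins and antimicrobial peptides 31 were higher (44.3%) and 3 lower, with a median of 0.53. The brightest genes, of which 17.9% were higher, include 34 of the 70. The antibacterial factor abf-5 read 10.23, 10.06 and 9.95 against 7.45, 7.5 and 7.39, a 6.21-fold difference with no overlap (adjusted p = 5.56e-07). The lysozyme lys-6 was 3.02-fold and the fungus-induced fipr-2 4.11-fold higher. Of the 31, the wild type was nearer to ogt-1 mutants in 9. The 3 lower members, cnc-7, spp-8 and spp-23, are weak: without ogt-1 array 1 none was called, and without ogt-1 array 2 or 3 or oga-1 array 1 or 3 a single one. The oga-1 arrays themselves disagree on the antimicrobial peptide cnc-7, at 5.43, 5.52 and 7.0, below the wild type on average (6.91).

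C-type lectins, a large family that includes pathogen-induced genes, were called in 41 of 220: 38 higher (17.3%) and 3 lower. The brightest of those named, clec-66, read 11.42, 11.59 and 11.57 against 9.21, 9.27 and 9.25, or 4.88-fold higher. Bacterial hybridisation controls, which are added to every sample, had a mean log2 signal of 9.38 ± 0.12 (SD, n = 3) on the ogt-1 arrays, while the oga-1 arrays averaged 9.14 ± 0.11 (SD, n = 3). Their difference of 0.24 did not pass an exact permutation test (two-sided p = 0.2, where 3 against 3 arrays cannot go below 0.1). The part of the controls in the defence and other higher lists was not tested.

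Genes for secreted signalling peptides were higher in ogt-1 mutants, and no member of these lists was called lower on all 6 arrays. Without ogt-1 array 3, 1 neuropeptide-like gene was. Insulin-like peptides are the ligands of the DAF-2 receptor, acting as agonists or antagonists, and 10 of 24 were higher (41.7%), with a median of 0.31. The largest, ins-22, read 7.04, 7.55 and 7.57 on the ogt-1 arrays, 4.79, 4.98 and 5.13 on the oga-1 arrays and 5.72 in the wild type, a 5.37-fold difference (adjusted p = 7.26e-06). The DAF-2 agonist ins-6 read 5.93, 6.07 and 6.15 against 4.58, 4.64 and 4.75, or 2.63-fold higher, and ins-33 was 3.79-fold higher. In 9 of the 10 called genes the wild-type mean fell between the mutants. It was nearer to oga-1 mutants in all 10, as it was in 87.1% of all higher genes.

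FMRFamide-like neuropeptides modulate feeding, egg laying and movement, and 14 of 25 were higher (56%), with a median of 0.50. For flp-5 the arrays read 8.42, 8.97 and 8.59 against 6.29, 5.84 and 6.71, or 5.20-fold higher, and for flp-15 they read 7.94, 8.34 and 8.13 against 6.62, 6.5 and 6.60, or 2.95-fold. A weak probe set of flp-15 differed by only 0.11 and was not called. The gene flp-19 was 4.32-fold higher by the probe set that stands for it and its other probe set differed by 2.37. Of 51 other neuropeptide-like genes 17 were higher, led by nlp-17 (2.77-fold), nlp-80 (2.94-fold) and nlp-64 (4.01-fold). The peptide-processing convertase egl-3 was also higher, by 1.97-fold, at 8.25, 8.61 and 8.35 against 7.38, 7.37 and 7.53. Without the 3 arrays of wide spread 6 rather than 14 FMRFamide-like genes were called, and 10 rather than 17 of the other neuropeptides.

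Calls among general markers of neurons went equally in both directions. Their difference from the peptide lists was not tested. Of 47 neuronal genes 4 were higher and 4 lower, 8.51% in each direction, beside 9.28% and 13.4% of all genes. The dimmer 2 of the 4 level groups hold 27 of the 47. In those level groups 1.29% and 5.21% of genes were higher and 0.561% and 2.69% lower. The touch-neuron tubulin acetyltransferase mec-17 was 2.17-fold higher. The octopamine-synthesis enzyme tbh-1 read 8.11, 7.94 and 8.41 against 9.69, 9.51 and 9.34, or 2.56-fold lower (adjusted p = 0.000134), and the aromatic amino acid decarboxylase bas-1 was 1.46-fold lower. The synaptic gene unc-18 was 1.63-fold higher by its stronger probe set, while its other probe set differed by -0.19 and was not called.

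**Figure D4:**
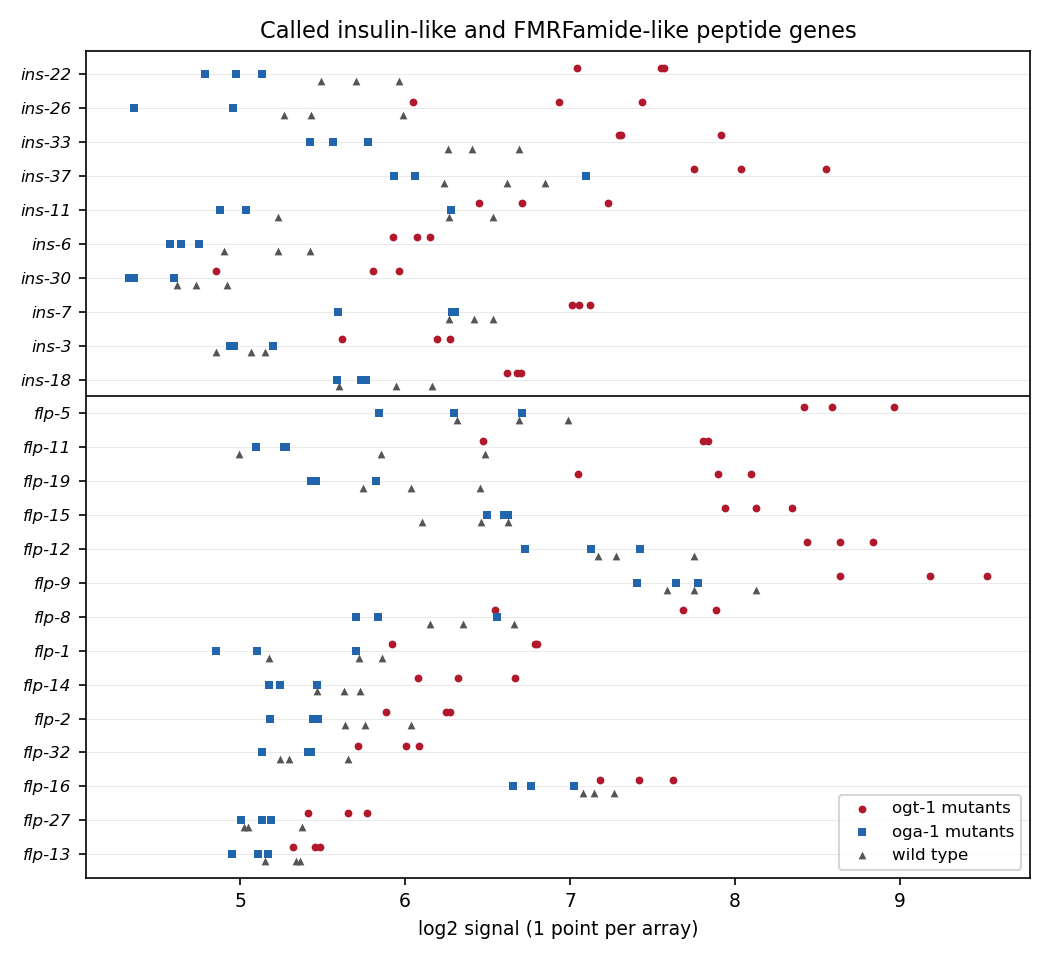
Log2 signal on each array (horizontal axis) of the 10 insulin-like peptide genes (above the line) and 14 FMRFamide-like genes (below the line) called higher in ogt-1 mutants, 3 points per group. Wild-type triangles often fall between the oga-1 squares and the ogt-1 circles, as for ins-22 at 5.72 between 4.97 and 7.39.

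Transthyretin-related genes, secreted proteins of a nematode-expanded family, were higher in 17 of 40 (42.5%) and lower in 3, with a median of 0.31. The brightest genes, of which 17.9% were higher, include 25 of the 40. The gene ttr-26 read 9.93, 10.12 and 10.05 against 6.99, 6.65 and 7.14, an 8.62-fold difference (adjusted p = 7.18e-07). The largest difference was that of ttr-27 (8.94-fold), and ttr-21 was 7.08-fold higher. The lower members were ttr-46 (1.73-fold), ttr-35 (1.68-fold) and ttr-51 (1.31-fold). The median was 0.47 without ogt-1 array 1.

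Calls among pharyngeal markers were mostly higher, and those among body wall muscle genes few and mixed. The difference between these lists was not tested. Of 22 pharyngeal markers 11 were higher and 1 lower (50% and 4.55%), with a median of 0.35. The pharyngeal troponin C tnc-2 read 9.31, 9.63 and 9.68 against 7.30, 7.31 and 7.02, or 5.0-fold higher (adjusted p = 3.60e-06), and the troponin T tnt-4 was 2.55-fold higher. The pharyngeal gland gene phat-8 was 4.63-fold higher, at 8.97, 8.89 and 8.85 against 6.87, 6.72 and 6.48. The lower member, the intermediate filament ifa-1 (1.32-fold), lost its call without ogt-1 array 1 or 2 or oga-1 array 1 or 3. Of 33 body wall muscle genes 2 were higher (6.06%) and 4 lower (12.1%), among them the troponin I unc-27 (1.98-fold lower). Of all genes 9.28% were higher and 13.4% lower, and of the brightest, which include 20 of the 33, 17.9% and 35.5%. The myosin light chain mlc-3 was 1.68-fold higher, at 12.01, 12.29 and 12.05 against 11.16, 11.44 and 11.52, and its other probe set was called at 0.45. The myosin heavy chain unc-54 was 1.57-fold higher, but its call was lost without ogt-1 array 2 or 3 or oga-1 array 1 or 2. The perlecan gene unc-52 was 1.58-fold lower by 1 probe set and differed by 0.00 and 0.02 by the others. With those arrays out the higher count was 1 without ogt-1 array 2 or 3 or oga-1 array 2, and the lower count 2 without ogt-1 array 1 or oga-1 array 1 or 3.

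Histone genes were higher while genes of DNA replication were lower. Of 35 histones 20 were higher and 4 lower (57.1% and 11.43%), with a median of 0.65. In all 20 higher ones the wild-type mean was nearer to oga-1 mutants, as it was in 87.1% of all higher genes. Among the brightest genes, which include 28 of the 35, 17.9% were higher. The core histone gene his-4 read 8.41, 8.18 and 8.22 against 6.43, 6.47 and 6.62, or 3.40-fold higher (adjusted p = 6.29e-06). The gene his-62 was 3.83-fold and the linker histone hil-2 2.92-fold higher. The lower ones included variant histones whose transcripts do not depend on replication, the H3.3 gene his-72 (1.57-fold) and the H2A.Z gene htz-1 (1.72-fold). Only 2 lower members were called without ogt-1 array 2, oga-1 array 1 or oga-1 array 3. Core histone genes are near-identical copies, and probe sets may read several of them.

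Of 29 replication genes 15 were lower and 0 higher, with a median of -0.43. The helicase subunits mcm-6 and mcm-5 were 2.04-fold and 1.62-fold lower, and the ribonucleotide reductase subunit rnr-2, at 10.03, 10.01 and 10.19 against 11.21, 10.83 and 10.83, was 1.84-fold lower. These are mostly bright genes, 21 of 29 among the brightest 4280, of which 35.5% were lower. After cyclic loess 8 were called lower and the median was -0.24.

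Genes of the sperm and the oocyte differed in opposite directions. L4 is the stage at which the hermaphrodite germ line makes sperm, before it switches to oocytes near the adult molt. Of 46 major sperm protein and small sperm genes 24 were higher (52.2%) and 0 lower, with a median of 0.34, and all 46 differences were above 0. Among the brightest genes, which include 44 of the 46, 17.9% were higher. For ssp-33 the arrays read 11.01, 10.75 and 10.80 against 9.42, 9.36 and 9.77, or 2.52-fold higher (adjusted p = 0.000105). The gene nspd-9 was 3.01-fold and ssp-37 1.66-fold higher. These genes are near-identical copies too, so their values are not independent, and the count was 10 without the 3 arrays of wide spread. Genes needed for sperm to form or work were called in 7 of 38 higher, with spe-27 at 2.04-fold, and 3 lower. Among the lower was fog-3, which sends germ cells to the sperm fate, at 5.36, 4.98 and 5.0 against 6.49, 6.21 and 6.43 (2.40-fold lower). The higher count was 4 without ogt-1 array 1 or oga-1 array 1, and 1 lower call was made when ogt-1 array 1, 2 or 3 or oga-1 array 1 or 3 was left out.

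Oocyte and maternal genes were lower in 21 of 31 and higher in 0 (67.7% lower), with a median of -0.61. All 31 lie among the brightest genes, of which 35.5% were lower. The oocyte maturation factor oma-2 read 8.98, 9.05 and 9.34 against 10.50, 10.26 and 10.31, or 2.35-fold lower (adjusted p = 0.000118), with the wild type between at 9.80. The translational regulator puf-3 was 1.81-fold and egg-1 1.83-fold lower. After cyclic loess 18 were lower with a median of -0.42, and without the arrays of wide spread 16.

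The wider germ line and the yolk proteins were mixed or less steady. Of 41 germline and meiosis genes 14 were lower (34.1%, against 35.5% of the brightest genes, which include 27 of 41), such as the germ-granule helicase glh-1 (1.65-fold), and 2 higher, the meiotic break enzyme spo-11 (1.72-fold) and syp-2 of the synaptonemal complex (1.58-fold). The lower count was 8 without ogt-1 array 1, 7 without ogt-1 array 2 and 6 after cyclic loess. Of 5 vitellogenins, yolk proteins made by the intestine, 3 were lower. The clearest, vit-1, read 10.46, 10.22 and 10.69 against 11.76, 11.53 and 11.62, or 2.27-fold lower. For vit-4 the probe set that stands for it differed by -0.49 and another by 0.69, both called, so vit-4 has no settled direction. Only 1 vitellogenin was called without ogt-1 array 2 or oga-1 array 1.

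The first enzyme of the hexosamine pathway was lower in ogt-1 mutants. The list of O-GlcNAc cycling and hexosamine genes held 8 genes, of which 4 were lower and 1 higher. Both mutated genes are among these called members. The aminotransferase gfat-1, which starts the pathway, read 9.28, 9.38 and 9.50 against 10.61, 10.09 and 10.32, or 1.94-fold lower (adjusted p = 0.000806). Its relative gfat-2 was 1.62-fold lower, while gna-1, gna-2 and pgm-3, which act later in the pathway, differed by -0.15, -0.50 and -0.21 and were not called. The gene nst-1, known as a relative of the nucleolar GTPase nucleostemin and not as an enzyme of the pathway, was 1.99-fold lower, at 8.53, 8.71 and 8.80 against 9.81, 9.46 and 9.73. The median of the list was -0.60, and since ogt-1 and oga-1 are members, it is partly fixed by the mutations.

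Most measured genes of glycolysis were lower, while few of trehalose and glycogen metabolism were called. In glycolysis and gluconeogenesis 13 of 20 genes were lower and 0 higher (65%), with a median of -0.61. The glyceraldehyde-3-phosphate dehydrogenase gpd-3 read 10.39, 10.49 and 10.31 against 11.38, 11.30 and 11.38, or 1.94-fold lower (adjusted p = 0.000131). The gluconeogenic carboxykinase pck-2 was 2.21-fold and the kinase pgk-1 1.87-fold lower. In all 13 the wild-type mean was nearer to oga-1 mutants, as it was in 76.2% of all lower genes. Of 12 genes of trehalose and glycogen metabolism 2 were lower (16.7%, near the 13.4% of all genes), the glycogen phosphorylase pygl-1 (1.99-fold) and gyg-2 (1.36-fold), and the latter lost its call without ogt-1 array 2 or oga-1 array 1.

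The mitochondrial steps followed. Of 29 genes of pyruvate oxidation, the citric acid cycle and the glyoxylate cycle 17 were lower and 0 higher, with a median of -0.45, and 1 was higher without ogt-1 array 1 and 3 after cyclic loess. The cytoplasmic aconitase aco-1 read 8.82, 8.70 and 8.61 against 9.94, 9.72 and 9.70, or 2.11-fold lower. The pyruvate dehydrogenase subunit pdha-1 was 2.02-fold and sucl-1, of succinyl-CoA ligase, 2.05-fold lower. Of 54 respiratory chain and ATP synthase genes 33 were lower and 2 higher, with a median of -0.46. Among them were the complex I subunit ndub-7 (2.13-fold), the ATP synthase subunit asg-2 (1.93-fold) and cox-5A of complex IV (1.74-fold), whose other probe set differed by -0.15 and was not called. The germline cytochrome c gene cyc-2.2 was the exception, at 10.95, 10.72 and 10.71 against 9.96, 9.92 and 10.30, or 1.66-fold higher. The other higher call, cox-10, was lost without each of ogt-1 arrays 1 and 2 and oga-1 arrays 1 to 3.

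These metabolic lists are bright: 15 of 20 glycolysis genes, 24 of 29 of the citric acid cycle and 47 of 54 of the respiratory chain are among the brightest 4280. Their shares of lower genes, 65%, 58.6% and 61.1%, stand beside 35.5% for the brightest genes. After cyclic loess 10, 12 and 19 were called lower, and the medians were -0.38, -0.28 and -0.21. Without the arrays of wide spread the counts were 8, 10 and 16. The 3' minus 5' signal of the actin and Gapdh control probe sets reads how far along the transcript amplified RNA reached. Between the mutants it differed by -0.16 and -0.25 (exact permutation p = 0.5 and 0.2, two-sided). On the wild-type arrays the actin value was 4.73, 4.82 and 4.75. All mutant arrays lay below these, at 4.14, 3.90 and 4.07 in ogt-1 and 4.31, 4.39 and 3.90 in oga-1 mutants. For Gapdh the wild type, at 3.29, 3.31 and 3.13, overlapped the oga-1 arrays, at 3.12, 3.28 and 2.95. The part of this signal in these lists, or in where the wild type lies, was not tested.

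Fat metabolism went in both directions. Of 25 genes of fatty acid synthesis, elongation and desaturation 12 were lower and 1 higher, with a median of -0.28, and 16 of 25 are among the brightest genes, of which 35.5% were lower. Beside fat-7, the ketoacyl reductase let-767 read 10.05, 9.90 and 10.02 against 11.20, 11.16 and 10.99, or 2.18-fold lower (adjusted p = 7.03e-05). The single higher member, elo-3 (1.29-fold), lost its call without ogt-1 array 1 or 2 or oga-1 array 1 or 3. In the list as a whole 0 were higher without ogt-1 array 2 or oga-1 array 1 or 3, and 2 without oga-1 array 2. Of 41 fatty acid oxidation genes 15 were lower (36.6%) and 2 higher, with a median of -0.25, and 21 of 41 are among the brightest genes. The acyl-CoA dehydrogenase acdh-3, the peroxisomal oxidase acox-1.2 and the carnitine palmitoyltransferase cpt-5 were 2.00-fold, 2.07-fold and 2.01-fold lower. The enoyl-CoA hydratase ech-9 read 6.59, 7.17 and 7.04 against 5.27, 4.86 and 4.49, or 4.18-fold higher, and cpt-4 was 1.61-fold higher.

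Lipases and lipid-binding proteins held members of both directions. The fasting-induced lipase fil-1 read 7.56, 8.0 and 7.82 against 5.55, 5.39 and 5.55, or 4.90-fold higher (adjusted p = 3.48e-06), with the wild type at 5.15. All animals were fed, per the labels. Of 21 lipases and lipid-binding proteins 4 were higher and 3 lower, with the lysosomal lipases lipl-5 (1.70-fold) and lipl-3 (1.56-fold) among the former and lbp-6 (2.11-fold) among the latter. Without ogt-1 array 2 the higher count was 2. In tryptophan breakdown by the kynurenine pathway 3 of 9 were lower (33.3%), with a median of -0.07. That share is near the 35.5% of the brightest genes, which include 4 of the 9. The kynureninase kynu-1 read 8.20, 8.10 and 8.08 against 9.76, 9.49 and 9.48 (2.74-fold lower), and tdo-2, the first enzyme, was 2.05-fold lower.

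Detoxification families held calls in both directions, and are read against 9.28% higher and 13.4% lower among all genes. Of 43 glutathione S-transferases 13 were higher (30.2%) and 3 lower (6.98%), with gst-22 at 9.23, 9.74 and 10.09 against 7.64, 7.56 and 7.59 (4.26-fold higher), gst-13 at 3.01-fold and gst-20 at 2.41-fold. The lower ones were gst-39, gst-1 and gsto-1, at 1.29- to 1.37-fold, and 1 was called without ogt-1 array 1, ogt-1 array 2 or oga-1 array 3. Of 64 UDP-glucuronosyltransferases 16 were lower (25%) and 3 higher (4.69%), with ugt-22 at 2.62-fold lower and ugt-52 at 1.89-fold higher. The lower count was 9 without ogt-1 array 1 or 3 or oga-1 array 3, 8 without ogt-1 array 2 and 10 without oga-1 array 1. Of 73 cytochrome P450s 15 were lower (20.5%) and 6 higher (8.22%), and 9 of the 15 are the lower cyp-35 genes above. The largest higher one, cyp-37B1 (3.00-fold), read 6.47 on ogt-1 array 1 and 7.63 and 7.6 on the others, against 5.78, 5.53 and 5.63.

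Oxidative stress defence also held members of both kinds. Of 29 genes 6 were higher (20.7%) and 10 lower (34.5%). These shares are near the 17.9% and 35.5% of the brightest genes, which include 15 of the 29. The glutathione peroxidase gpx-3 read 6.99, 7.42 and 7.18 against 4.81, 4.82 and 4.81, or 5.22-fold higher (adjusted p = 2.21e-06), and gpx-7 was 2.25-fold higher. The superoxide dismutases sod-1 (cytoplasmic) and sod-2 (mitochondrial) were 1.82-fold and 1.68-fold lower, and the mitochondrial peroxiredoxin prdx-3 was 1.74-fold lower. The iron-storage ferritin ftn-1 read 10.25, 10.24 and 10.30 against 9.0, 8.79 and 8.52, or 2.81-fold higher, the only higher call among 16 genes of iron and metal homeostasis as fitted. Of that list 6.25% were called higher and 12.5% lower, against 9.28% and 13.4% of all genes. It held 3 higher calls without ogt-1 array 1 or oga-1 array 3, 2 without ogt-1 array 3 or oga-1 array 1, and 5 after cyclic loess. Its 2 lower calls, pcs-1 and hmt-1, both fell away without ogt-1 array 1, ogt-1 array 2 or oga-1 array 3, and 1 was called without ogt-1 array 3 or oga-1 array 1.

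The proteasome had the largest share of lower genes of any list with 5 or more members. Of 33 subunits 25 were lower (75.8%) and 1 higher, with a median of -0.68, and 31 of 33 are among the brightest genes. The core subunit pbs-7 read 9.38, 9.37 and 9.68 against 10.61, 10.46 and 10.45, or 2.04-fold lower (adjusted p = 0.000235). The lid subunit rpn-9 was 1.92-fold and the core subunit pbs-6 1.77-fold lower. In all 25 the wild-type mean lay between the mutants, and in 19 it was nearer to oga-1 mutants. The higher subunit, rpn-7, was called at 1.36-fold and lost its call without ogt-1 array 2 or 3 or oga-1 array 2 or 3. After cyclic loess 20 were lower, with a median of -0.40.

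Ribosomal protein genes were lower by less. Of 76 cytosolic ones 39 were lower and 1 higher, with a median of -0.32, and 75 are among the brightest genes. For rpl-7 the arrays read 12.22, 12.24 and 12.302 against 13.23, 12.94 and 13.02, or 1.75-fold lower, and rps-6 was 1.68-fold lower. The count depends on single arrays: 13 were lower without ogt-1 array 2, 18 without oga-1 array 3, 22 without ogt-1 array 1 and 23 without oga-1 array 1, and 8 without the arrays of wide spread. The higher call, rpl-42, was lost without ogt-1 array 1 or 2 or oga-1 array 1 or 3. Of 59 mitochondrial ribosomal proteins 26 were lower (44.1%) and 0 higher, with 28 of 59 among the brightest genes, led by mrpl-32 (1.86-fold), with 16 lower without oga-1 array 1. Of 36 translation factors 9 were lower (25%) and 1 higher, a share below the 35.5% of the brightest genes, which include 25 of them. The initiation factor eif-3.K read 7.28, 7.47 and 7.69 against 8.71, 8.55 and 8.72, or 2.26-fold lower, and ife-2, an eIF4E, was 1.89-fold lower. Lower translation factors numbered 4 without ogt-1 array 2 and 5 without oga-1 array 1 or 3. The higher one, eif-4A3, was not called without ogt-1 array 1 or 3 or oga-1 array 3.

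Chaperones were lower in 20 of 66 (30.3%) and higher in 3, and 36 of 66 are among the brightest genes, of which 35.5% were lower. Members of the same complex went in different directions: of the prefoldin subunits named, pfd-3 and pfd-6 were 1.76-fold and 1.93-fold higher and pfd-1 was 1.75-fold lower. For pfd-6 the arrays read 10.50, 10.50 and 10.93 against 9.73, 9.56 and 9.80. The chaperonin cct-4 was 1.59-fold lower, but its other probe set differed by -0.17 and was not called. The count of lower chaperones was 13 without ogt-1 array 2 and 10 after cyclic loess, when 8 were higher. Of 21 genes of the endoplasmic reticulum stress response 5 were lower, such as the BiP gene hsp-4 (1.84-fold) and pdi-1 (1.96-fold), and the stress kinase pek-1 was 1.52-fold higher. The higher count of that list was 2 without ogt-1 array 1.

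Lists of nuclear RNA synthesis and export held more lower than higher genes, and they are read against 13.4% lower among all genes and 35.5% among the brightest. Of 33 splicing and RNA processing genes 22 were lower and 0 higher (66.7%), with a median of -0.51. The spliceosomal snr-6 read 7.74, 7.48 and 8.04 against 9.08, 8.73 and 8.85, or 2.19-fold lower, and prp-38 was 1.77-fold lower. Of 54 genes of RNA polymerase II, its TAF proteins and Mediator 24 were lower and 1 higher, with rpb-6, a polymerase subunit, at 2.07-fold lower and the Mediator subunit mdt-22 at 1.55-fold higher. Of 38 nuclear pore and transport genes 16 were lower and 0 higher, with the importin ima-2 at 2.04-fold. Nuclear pore proteins and RNA polymerase II are classic carriers of O-GlcNAc. Counts of lower genes without ogt-1 array 2 were 13 for the polymerase list and 9 for the pore list, and the latter was 9 without oga-1 array 1 too. The shares of lower genes in the polymerase and pore lists, 44.4% and 42.1%, are near that of the brightest genes, to which 24 of 54 and 27 of 38 members belong, as do 24 of 33 of the splicing list. After cyclic loess the 3 lists held 14, 16 and 8 lower genes.

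The insulin pathway downstream of its ligands held 7 lower genes of 19 and 0 higher, with a median of -0.25. That share, 36.8%, is near the 35.5% of the brightest genes, to which 11 of 19 belong. The 14-3-3 protein par-5 read 11.97, 11.81 and 11.87 against 12.58, 12.52 and 12.62, or 1.62-fold lower, with its other probe sets at -0.61 and -0.59, both called. The TORC2 subunit rict-1 was 1.52-fold lower, with its dim second probe set at -0.05. Lower genes numbered 4 without ogt-1 array 1, ogt-1 array 2 or oga-1 array 1, and 1 was higher without ogt-1 array 1. Genes known to be activated by the FOXO factor DAF-16, the pathway's main output, were higher in 6 of 25 and lower in 6. The strongest, dod-6, read 12.35, 12.46 and 12.37 against 10.35, 10.49 and 10.29, or 4.05-fold higher (adjusted p = 2.21e-06). The lysozyme lys-7 was 2.63-fold higher, dct-18 2.2-fold lower and fat-7 lower as above. Another list also holds 16 of these 25 genes.

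Autophagy, lysosome and vacuolar ATPase genes were lower in 19 of 49, among them vha-20 (1.99-fold) and epg-6 (1.85-fold), and higher in 2, lgg-2 and vha-1. The share of lower genes, 38.8%, is near the 35.5% of the brightest genes, which include 27 of 49. Neither higher call held without ogt-1 array 3 or oga-1 array 2 or 3, and 1 held without ogt-1 array 2, when 12 were lower. After cyclic loess 9 were lower. Of 10 sqv genes, which build the chondroitin needed for vulval shape and cytokinesis, 4 were lower, with sqv-5 at 8.91, 8.75 and 9.01 against 9.80, 9.64 and 9.66 (1.75-fold lower). Without ogt-1 array 2 that count was 2.

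Few genes of vulval fate, cuticle collagens, molting and astacin proteases were called, beside 9.28% higher and 13.4% lower among all genes. The dimmer 2 of the 4 level groups hold 19 of 35 vulval, 66 of 98 molting and 28 of 36 astacin genes, and 40 of 146 collagens. In those level groups 1.29% and 5.21% of genes were higher and 0.561% and 2.69% lower. The vulva was used to stage the animals, and of 35 genes of vulval fate and signalling 2 were higher and 0 lower. The anchor-cell factor fos-1 was 2.01-fold higher, at 9.78, 9.89 and 10.40 against 9.34, 8.97 and 8.75, but its dim probe set differed by 0.10. The dim nhr-67 was 1.31-fold higher, and 1 vulval gene was called without ogt-1 array 2 or oga-1 array 3. Of 146 cuticle collagens 6 were higher and 4 lower. The higher ones numbered 1 without ogt-1 array 2, 3 without ogt-1 array 3, 2 without oga-1 array 1 and 15 after cyclic loess, and the lower ones 2 without ogt-1 array 1 or oga-1 array 3. Of 98 hedgehog-related and molting genes 4 were higher and 2 lower, with wrt-5 at 1.86-fold higher. The lower count was 1 without ogt-1 array 2 or 3 or oga-1 array 1. Of 36 astacin proteases 2 were lower, dpy-31 and nas-11, and 0 higher, with 1 higher without ogt-1 array 3 or oga-1 array 3 and 3 without oga-1 array 2.

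Of 255 nuclear hormone receptors 13 were higher and 10 lower, or 5.10% and 3.92%. Of the 255, 181 lie in the dimmer 2 of the 4 level groups, in which 1.29% and 5.21% of genes were higher and 0.561% and 2.69% lower. The clearest, nhr-58, was 2.63-fold higher, and nhr-10 was 1.42-fold lower. Higher receptors numbered 7 without ogt-1 array 2 and 8 without oga-1 array 1, and lower ones 3 to 6 without each array in turn, with 3 when ogt-1 array 1 was left out. Of 22 intestinal markers 2 were higher (9.09%), the GATA factor elt-7 (1.86-fold) and the esterase ges-1 (1.62-fold), and 4 lower (18.2%). Of all genes 9.28% were higher and 13.4% lower, and of the brightest, which include 13 of the 22, 17.9% and 35.5%. Among the lower intestinal markers were pho-1 at 6.42, 6.61 and 6.52 against 8.35, 7.88 and 8.04 (2.97-fold) and the intestinal actin act-5 (1.63-fold). The intestinal counts were 6 higher without oga-1 array 3 and 2 lower without ogt-1 array 2. Of 19 hypodermal markers 0 were higher and 1 lower, with 0 lower without ogt-1 array 1 or 2 or oga-1 array 1 and 2 without oga-1 array 2. Of 12 markers of the male tail and male neurons none was called by limma, and their mean levels, from 3.84 to 5.79, were low in all 3 groups.

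**Figure D5:**
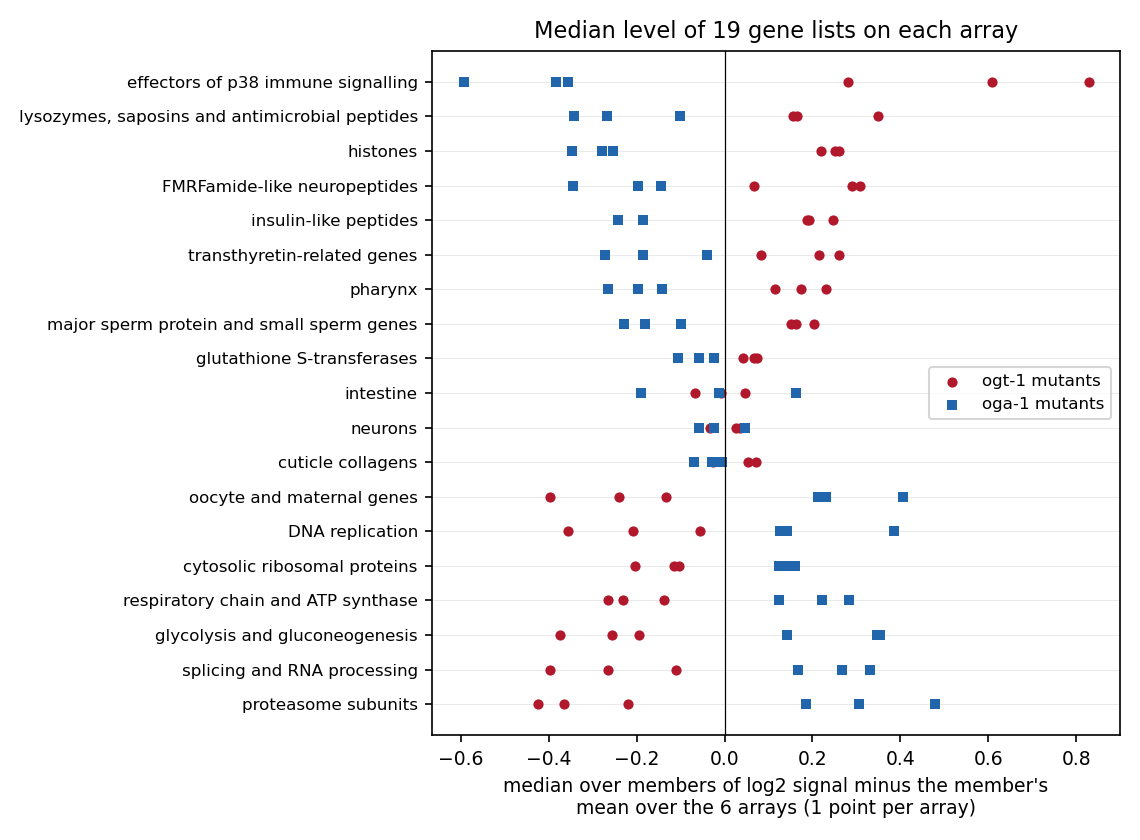
Median over a list's members of log2 signal minus the member's mean over the 6 arrays (horizontal axis), for 19 gene lists (rows), with 3 ogt-1 arrays as circles and 3 oga-1 arrays as squares. Circles lie right of squares for defence, peptide, histone and sperm lists and left of them for the oocyte list and those below it, while the intestine, neuron and collagen lists overlap.

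Seen by array, some lists separated the mutants on every array and others did not. The lists given here were picked from those that did, on the same arrays as the calls. Those that overlapped include cathepsin-type proteases, cytochrome P450s, oxidative stress defence, DAF-16-activated genes, sperm function genes and body wall muscle. The median member of the p38 effector list was 0.28, 0.83 and 0.61 above its 6-array mean on the ogt-1 arrays and -0.38, -0.59 and -0.36 on the oga-1 arrays. For histones the values were 0.25, 0.22 and 0.26 against -0.28, -0.35 and -0.25. For proteasome subunits they were -0.37, -0.42 and -0.22 against 0.48, 0.19 and 0.31. Among the lower lists ogt-1 array 3 was often the highest ogt-1 array and oga-1 array 2 the lowest oga-1 array, as for DNA replication (-0.06 and 0.13).

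The calls were spread unevenly over the nuclear chromosomes. Of genes on chromosomes III and I 20.5% and 19.1% were lower in ogt-1 mutants, against 7.61% on X and 8.46% on V. Among nuclear chromosomes higher genes ranged from 8.08% on X to 12.1% on IV, and 2-fold higher genes were also most frequent on IV, at 4.13% of 2666. Chromosome III carries ogt-1 and X carries oga-1. Of the 10 measured genes on each side of ogt-1, 2 were higher and 6 lower, and around oga-1 1 was higher and 3 lower of 20. Over all of chromosome III 8.26% of genes were higher and 20.5% lower, and over X 8.08% and 7.61%. The neighbour counts were not tested against these shares, and the chromosomes were not compared at equal signal level. The strongest of the ogt-1 neighbours was K04G7.1 (difference -1.03, adjusted p = 0.000288), named here after its value was seen.

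Genes that differed by at least 2-fold had neighbours of the same kind more often than genes at large. Of 461 placed genes that were 2-fold higher, 53 (11.5%) had a 2-fold higher gene next to them, against 5.24% of all 17073 placed genes. For lower genes it was 10 of 162 (6.17%) against 1.88%. Clones T26E4 and ZK218, each with a pair of genes among the 15 largest differences, show this in their names. Neighbouring genes can share sequence and probe sets can cross-hybridise, so these counts are a description and no test was made.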

How the data were processed

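RNA of 9 lots of hand-picked larvae was amplified by T7 transcription and read on 1 Affymetrix C. elegans array per lot, per the labels' protocols. The deposited values are log2 signals per probe set made by the authors, and the submitters' processing notes name MAS5, RMA and Partek without saying which of them made the table. With no counts behind them, precision is limited by how many arrays there are. The deposited values were used without further scaling. Of 22625 probe sets, 77 AFFX controls were left out, 20766 of the others named 1 gene, 887 several and 895 none, by the platform annotation.

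The main test was limma 3.58.1 in R 4.3.3 on the 3 ogt-1 and 3 oga-1 arrays, with strain as the only term, 4 residual degrees of freedom, two-sided p-values and Benjamini-Hochberg adjustment over all probe sets, and it was tested on simulated data. A gene list is described by its counts and median. The comparison, the 56 lists and the rule for named genes were chosen with earlier results of these data known. The rule named ogt-1 and oga-1, the 15 largest non-overlapping called differences in each direction, and, in each list with at least 2 called members, up to 3 called members per direction by smallest p. It named 243 genes, not all of which are printed. Others named are cec-4, ins-26, cyp-35A3, cyp-35B2 and K04G7.1, chosen after their values were seen, and pmk-1, sek-1 and the uncalled hexosamine genes, given as members of their lists. Of 56 further probe sets of named genes, 29 were called the same way and 1, of vit-4, the opposite way. Alternatives changed the scaling, the level filter, the variance model, the arrays used and the threshold. A common SD and cyclic loess were added after seeing the data. Promoter and probe sequences were not analysed here.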

Additional observations from a re-analysis of the deposited data

Results flagged for a closer look

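The bacterial hybridisation controls, which the comparison of genes left out, averaged 9.3832 in log2 signal on the ogt-1 arrays, and each ogt-1 array (9.39, 9.26 and 9.50) was above every wild-type array (9.10, 9.02 and 9.20). The oga-1 arrays read 9.26, 9.04 and 9.12 and overlapped the wild type. The part of this difference in the gene comparisons was not tested. The actin 3' minus 5' signal set the wild type apart from both mutants, with a mean of 4.77 against 4.04 in ogt-1 and 4.20 in oga-1 mutants. Its part in the position of the wild type was not tested.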

How the results depend on the processing

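With 3 arrays per strain, calls near the threshold depend on single arrays and on scaling, and the cause of the shifts below was not tested. Against 1948 probe sets called higher and 2896 lower, a minimum of 1.5-fold left 1236 and 1428, the arrays without the 3 of SD over 1.8 gave 1158 and 1386 (1 oga-1 array is left, whose spread is taken from the other groups), cyclic loess called 1867 lower, and the brightest probe sets alone held 1063 higher calls. Leaving out 1 array at a time gave 1800 to 3216 lower and 1436 to 1814 higher calls. Of 243 named genes, 219 kept their call under cyclic loess, 170 without the wide arrays and 207 to 231 when 1 array was left out, and no named gene reversed. The fit with the replicate number as a block gave 1879 higher and 2898 lower calls. The numbers did not pair the arrays, with correlations of same-numbered deviations of -0.1729, 0.1098 and 0.0725, and ogt-1 array 3 correlated best with oga-1 array 1 (0.356).

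Among the lists of at least 5 genes in which the called share exceeds that of all genes, the medians that changed sign were those of DAF-16-activated genes (-0.0089 without ogt-1 array 2 and -0.0038 without the wide arrays), cytochrome P450s (0.0135 without oga-1 array 2), the intestine (0.1022 without oga-1 array 3, 0.2122 without the wide arrays and 0.1212 under cyclic loess), the endoplasmic reticulum list (0.0427 under cyclic loess) and cathepsin-type proteases (-0.0333 among the brightest probe sets). Under cyclic loess the other moved medians were -0.436 for hexosamine genes, -0.381 for glycolysis, -0.2848 for the citric acid cycle, -0.2069 for the respiratory chain, -0.182 for fatty acid synthesis, -0.1046 for fatty acid oxidation, 1.1662 for p38 effectors, -0.3966 for the proteasome, -0.2539 and -0.2141 for cytosolic and mitochondrial ribosomal proteins, -0.1303 for chaperones, 0.7905 for histones, -0.2362 for DNA replication, -0.184 for RNA polymerase II, -0.1577 for the nuclear pore, -0.2976 for splicing, 0.1534 for other neuropeptides, -0.0959 for autophagy, 0.482 for transthyretin-related genes, -0.4233 for oocyte genes and -0.134 for the germ line.

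Without the wide arrays the medians were -0.4773 for glycolysis, -0.3782 for the respiratory chain, 1.1393 for p38 effectors, -0.1286 for cytochrome P450s, 0.6095 for histones, 0.1555 for other neuropeptides, -0.266 for autophagy and -0.1195 for sqv genes. Among the brightest probe sets they were -0.904 for hexosamine genes, -0.4914 for fatty acid synthesis, 0.1651 for lipases, -0.711 for the kynurenine pathway, 0.8777 for lysozymes, 0.5566 for glutathione S-transferases, -0.3642 for UDP-glucuronosyltransferases, -0.5772 for cytochrome P450s, -0.5916 for oxidative stress defence, -0.4741 for mitochondrial ribosomal proteins, -0.2569 for the endoplasmic reticulum list, 0.7232 for histones, -0.439 for RNA polymerase II, -0.4388 for insulin and FOXO signalling, 1.5431 for FMRFamide-like and 0.9469 for other neuropeptides, 0.3883 for DAF-16-activated genes, -0.448 for autophagy, 0.2569 for sperm function and 1.3501 for the pharynx. Above the median level they were -0.3275 for fatty acid synthesis, 0.0045 for lipases, 0.7854 for lysozymes, 0.3285 for glutathione S-transferases, -0.3531 for UDP-glucuronosyltransferases, -0.2869 for cytochrome P450s, 0.721 for histones, -0.4025 for insulin and FOXO signalling, 0.9854 for insulin-like peptides, 1.2828 for FMRFamide-like and 0.7788 for other neuropeptides, -0.3368 for autophagy and 0.657 for the pharynx. Both filters test fewer genes by construction.

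Quantile normalization gave medians of -0.3809 for the respiratory chain, -0.1994 for fatty acid synthesis, 0.0337 for glutathione S-transferases, -0.2201 for chaperones, 0.5992 for histones, 0.1527 for other neuropeptides and 0.2677 for small sperm genes. Median centring gave 0.0344 for glutathione S-transferases, 0.611 for histones, 0.2752 for insulin-like peptides and 0.1529 for other neuropeptides. Array weights gave 0.1301 for lipases and 0.1389 for glutathione S-transferases, means over probe sets -0.1781 for fatty acid synthesis and 0.3781 for insulin-like peptides, and a common SD -0.2091 for cytosolic ribosomal proteins, 0.741 for histones and 0.4595 for small sperm genes.

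Leaving out 1 array at a time, the medians ranged from -0.6766 to -0.5007 for glycolysis, 0.8008 to 1.2139 for p38 effectors, 0.052 to 0.1438 for glutathione S-transferases, 0.2569 to 0.4666 for transthyretin-related genes, 0.3603 to 0.5812 for lysozymes, -0.3313 to -0.2734 for cytosolic ribosomal proteins, -0.0089 to 0.1343 for DAF-16-activated genes, -0.7594 to -0.4963 for hexosamine genes, 0.591 to 0.6562 for histones and -0.5138 to -0.3823 for the respiratory chain. They ranged from -0.3485 to -0.2586 for fatty acid synthesis, -0.5728 to -0.3655 for vitellogenins, 0.2781 to 0.3489 for insulin-like peptides, -0.4071 to -0.1802 for sqv genes, 0.2764 to 0.4274 for the pharynx, -0.178 to -0.0169 for the kynurenine pathway, -0.0941 to 0.0135 for cytochrome P450s, -0.2727 to -0.1095 for translation factors, 0.3002 to 0.392 for small sperm genes and -0.0487 to 0.1022 for the intestine.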
